A study of Homo sapiens with 6 samples.

Results

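The genes described here are those of human chromosome 21 that were measured at a usable level in colonies of HCA-7, an established colorectal cancer cell line. RefSeq places 846 genes on the chromosome, 239 of them protein-coding, and 242 had a probe set annotated to 1 gene symbol only. Each gene was represented by its brightest such probe set, and 137 reached a mean of log2 5 over the 6 arrays. MX1, MX2, IFNAR1, IFNAR2, IFNGR2, IL10RB, TFF1 and LSS were left out by the rule, which left 129 members of 12317 genes tested in all. The other 105 genes lay under the threshold: SYNJ1 (mean 4.95), B3GALT5-AS1 (4.97) and ADAMTS1 (4.98) were the nearest outside it, and TMPRSS2 (5.05), ITGB2-AS1 (5.07) and COL6A2 (5.09) the nearest inside. The chromosome was picked because its genes were lower in the spiky clone of the same arrays, so the members were in effect selected on the spiky against cystic values. Those values are a description and carry no test; change over culture time was not used to pick it and was tested.

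HCA-7 cells form 2 kinds of colony in type 1 collagen, round hollow (cystic) ones and spiky ones. A cystic clone, cc3, and a spiky clone, sc1, were each grown in 3D collagen, and total RNA of the gel layer that held the cells was measured at day 5, 10 and 15 on Affymetrix human expression arrays. There was 1 array per clone and day, 6 in all, so colony shape cannot be told apart from the clone. The labels do not say that the days were separate cultures. With culture day in the main fit, its error rests on how far the clone difference varied between the days, which may be partly technical. Day 15 against day 5 rests on 1 array per clone at each day.

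Chromosome 21 is the smallest human autosome, and an extra copy of it causes Down syndrome, in which transcript levels of many of its genes follow the number of copies. Its genes share position rather than function: they encode, among others, the antioxidant enzyme SOD1, the amyloid precursor APP, the kinase DYRK1A, the splicing factor U2AF1 and enzymes of purine, folate and biotin use. Colorectal cancer lines often gain or lose whole chromosomes, and clones of 1 line can differ in this. These arrays measured RNA only, and DNA copies were not analysed here.

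The median probe set of an array was at log2 5.18 to 5.34. The 3' over 5' difference of the ACTB control probe sets, a sign of RNA integrity, was 2.83 to 3.28 on cystic and 2.73 to 3.10 on spiky arrays, and that of GAPDH 0.63 to 0.79 and 0.49 to 0.63. Of 8 epithelial marker genes 6 reached log2 5, against 0 of 4 endothelial, 2 of 7 fibroblast (COL1A1 and FBLN1) and 4 of 6 leukocyte genes. The summed epithelial level was 13.85 to 14.30 on cystic and 13.77 to 14.07 on spiky arrays, the fibroblast one 7.77 to 8.72 and 7.65 to 8.35, and the endothelial one 5.88 to 6.55 and 6.09 to 6.71. The leukocyte one was 9.60 to 10.84 on cystic and 8.54 to 9.62 on spiky arrays. Its brightest gene was LYZ, for lysozyme (means 9.79 and 8.44), while the pan-leukocyte gene PTPRC was at 2.82 and 3.07; the part of these differences in the results below was not tested.

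Most chromosome 21 genes had lower values in the spiky clone, all along the chromosome. The fitted spiky minus cystic difference (log2) was negative for 120 of 129 members, with a median of -0.54, which is 0.686 of the cystic level, and the members' quartiles were -0.78 and -0.36. Over all tested genes the median was -0.03, with quartiles of -0.21 and 0.13. The members' medians at day 5, 10 and 15 were -0.48, -0.65 and -0.54. In RNA of whole gel layers, fewer cells of a type and less RNA per cell cannot be told apart.

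Limma with Benjamini-Hochberg adjustment over all genes called 81 members lower in spiky colonies, 62.8% of the members, where 7.74% of all tested genes were called lower. It called 0 members higher, where 3.65% of all tested genes were, and 0 also at an unadjusted p under 0.05, where 9.21% were. These calls rest on the contrast that picked the chromosome and are given as a description. The filter took the mean of both clones, so a gene low in the spiky clone could pass through its cystic arrays. TMPRSS2, B3GALT5, EPCIP-AS1, BRWD1-AS2, ITGB2-AS1 and COL6A2 had spiky means under log2 5, while no member had a cystic mean under it. All of them were negative, and of them TMPRSS2 and B3GALT5 were called. In 66 members (51.2%) all 3 spiky arrays lay under all 3 cystic arrays, which held for 10.1% of all tested genes, and in 104 members (80.6%) the spiky array was lower on each of the 3 days, against 25.7%. With no replicate block, that is with culture day left out of the model, 5 members were called lower, and 0.43% of all tested genes. Without 1 array the count was 47 (cystic day 5 left out), 49 (cystic day 10), 84 (cystic day 15), 49 (spiky day 5), 50 (spiky day 10) or 86 (spiky day 15). The share of all tested genes called lower in those fits was 2.91%, 4.17%, 11.4%, 2.96%, 4.26% and 11.4%, in the same order, while the members' median stayed between -0.59 and -0.53. The fits without the cystic and without the spiky array of a day share their clone differences, which rest on the other days, so they are not separate checks.

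**Figure D1:**
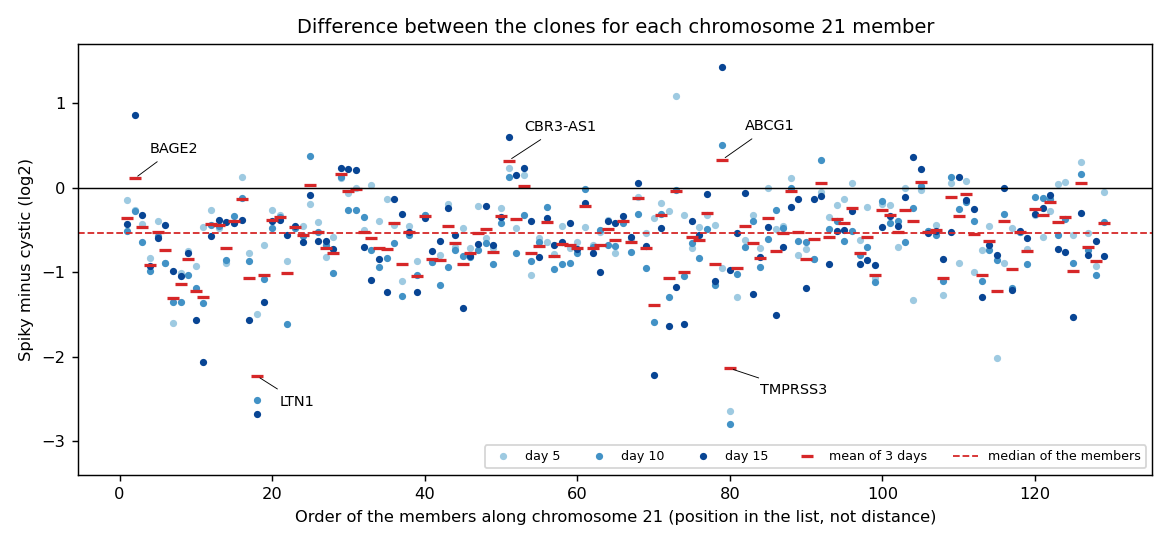
Spiky minus cystic difference (log2, vertical axis) of the 129 members in their order along chromosome 21 (horizontal axis, position in the list). Blue points are the 3 days, red dashes their mean and the dashed line the members' median of -0.54; most dashes lie under 0 along the whole list, with LTN1 and TMPRSS3 the lowest and ABCG1 and CBR3-AS1 the highest.

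The lower level ran along the chromosome from one end to the other. Between ANKRD20A11P and SCAF4 there were 22 members in a row with negative differences, between EVA1C and CBR1 21, between MORC3 and ZBTB21 25, and between UBE2G2 and YBEY 20. The 9 members with positive differences each stood alone between negative neighbours. Medians of 15 neighbouring members, taken in 115 overlapping windows, went from -0.85 (HSPA13 to LTN1) to -0.40 (LINC00319 to TSPEAR-AS2), so no stretch of 15 members had a median near 0. The 3 successive blocks of 43 members had medians of -0.56, -0.66 and -0.50.

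Of the other chromosomes only 13 was as low, with a median of -0.69 over 201 genes. The remaining 21, X included, had medians between -0.18 and 0.07, and 2.6% to 21.6% of their genes were called lower; chromosomes 9 and 15 were at the high end of that share. No test compares chromosomes here, because the arrays that show the difference are those that picked it.

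**Figure D2:**
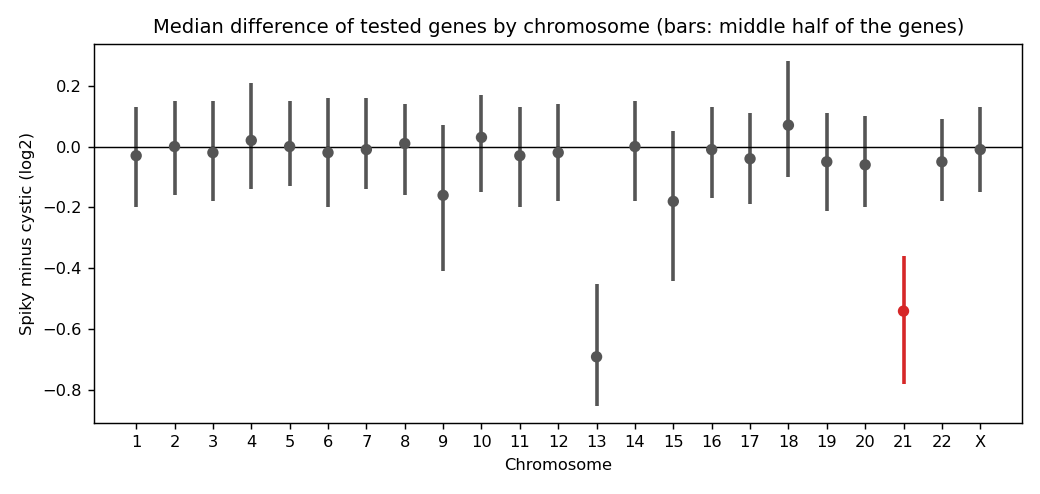
Median spiky minus cystic difference (log2, points) of the tested genes on each chromosome, with bars from the lower to the upper quartile of the genes; chromosome 21, without the 8 genes left out, is in red. Chromosomes 21 (-0.54) and 13 (-0.69) sit apart from the other 21, whose medians lie between -0.18 and 0.07.

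The size of the difference varied with the level of the gene. The 28 members with a mean between log2 5 and 6 had a median of -0.25, the 36 members from 6 to 8 one of -0.71, the 44 from 8 to 10 one of -0.66, and the 21 brightest, from 10 up, one of -0.47. In the same bands the genes of other chromosomes had medians of -0.08, -0.05, 0.00 and 0.02. The SD among members was 0.54 in the band from 6 to 8 and 0.22 among the brightest. The 105 dim chromosome 21 genes under the threshold had a median of -0.02, and 59 of them were negative. The 106 protein-coding members had a median of -0.57 and the 23 others, noncoding RNAs and pseudogenes, one of -0.41. Other bright probe sets of the same genes, which hybridised to the same RNA, had the same sign in 143 of 153 cases (93.5%). As 93.0% of the members were negative, this share says little about agreement between probe sets of 1 gene.

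The members furthest below their cystic level had varied roles. LTN1, the ubiquitin ligase that tags stalled nascent chains on ribosomes, was at 7.30, 7.59 and 7.28 on the cystic arrays of day 5, 10 and 15 and at 5.80, 5.07 and 4.60 on the spiky ones. Values of other members are given in the same order, cystic before spiky. The groups did not overlap, and LTN1 was at least 4.28-fold lower; folds are lower bounds, with arrays set to log2 5, wherever the lower group had an array beneath that level. Its 1 other bright probe set gave -1.88, and the mean of all its probe sets -1.57, against -2.23 on the brightest. TMPRSS3, a transmembrane serine protease, gave cystic values of 8.87, 8.31 and 9.37 and spiky ones of 6.23, 5.50 and 8.40. It was 4.4-fold lower, with the spiky array of day 15 reaching into the cystic range. Its 2 other bright probe sets were at -1.14 and -1.13. CXADR, a tight junction protein and virus receptor, was at 8.68, 8.65 and 8.26 against 7.09, 7.30 and 7.27, 2.49-fold lower with no overlap.

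PTTG1IP, a membrane protein that binds securin, was among the bright members, at 11.87, 11.64 and 11.69 on cystic arrays against 10.60, 10.54 and 10.84 on spiky ones (2.11-fold lower, no overlap). BTG3, an antiproliferative protein, was 2.21-fold lower, at 9.16 ± 0.40 against 8.02 ± 0.37 (log2, mean ± SD, n = 3 days). Its brightest probe set not ending in _x_at or _s_at gave -0.53 in place of -1.14. B3GALT5, a galactosyltransferase of mucin-type and lipid-linked glycans, was at least 1.97-fold lower. Its spiky mean was 4.67 against a cystic 6.06, so it passed the filter through its cystic arrays and the difference carries little weight. Of the noncoding genes, LINC00515 was at least 2.18-fold and LINC00205 2.34-fold lower. PLAC4 was at 6.52, 7.72 and 8.59 in cystic cultures against 6.24, 6.43 and 6.95 in spiky ones; the cystic array of day 5 lay within the spiky range. HEMK2, a methyltransferase that modifies a translation release factor, was 2.10-fold lower without overlap. Its cystic values were 8.0, 7.73 and 7.46 and its spiky ones 7.23, 6.86 and 5.89.

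Of 16 members for transcription and chromatin 14 were called lower and 0 higher, with a median of -0.70. Over all members 62.8% were called lower, and over all tested genes 7.74% were called lower and 3.65% higher. Neither this list nor those below were tested against these shares. ETS2, a transcription factor downstream of Ras signalling, was at 9.11, 9.09 and 9.51 against 8.42, 8.39 and 8.73, without overlap. BACH1, a repressor of antioxidant genes, was 2.01-fold lower at -1.01 (SE 0.21), although its other bright probe set gave -0.43. GABPA, an ETS family factor for mitochondrial genes, was at -0.72, the nuclear receptor corepressor NRIP1 at -0.53 and the nucleosome-binding protein HMGN1 at -0.39. CHAF1B, a subunit of the assembly factor that loads histones behind the replication fork, was at -0.69. The homeobox gene PKNOX1, at -0.36, was closest to its cystic level, and 1 of its 4 other bright probe sets had the same sign.

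Of 14 RNA and ribosome members 12 were called lower (median -0.59), against 62.8% of all members and 7.74% of all tested genes. The splicing factor genes U2AF1 and SON were at -0.54 (SE 0.08) and -0.34 (SE 0.05). SON was at 12.57, 12.64 and 12.61 against 12.24, 12.31 and 12.25, with no overlap; its 4 other bright probe sets gave larger differences, from -0.86 to -0.47, so the size for SON depends on the probe set. The RNA editing enzyme ADARB1 was at -1.04, but its 3 other bright probe sets lay between -0.16 and 0.00. All 9 members for protein folding, ubiquitin and SUMO were called lower (median -0.52). HSPA13, an Hsp70 family member, was at 10.02, 10.16 and 9.99 against 9.18, 9.17 and 9.06. Its other bright probe set gave -0.57, against -0.92 on the brightest. The deubiquitinase USP25 was at -0.74. SUMO3, a small ubiquitin-like modifier, was at -0.50, and CCT8, a subunit of the cytosolic chaperonin, was nearest to its cystic level at -0.35.

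Among 20 metabolic and mitochondrial members 13 were called lower and 0 higher (median -0.67). This was near the share of 62.8% over all members, where 7.74% of all tested genes were called lower. GART, the trifunctional enzyme of purine synthesis, was at 9.57, 9.58 and 8.74 against 8.70, 8.54 and 7.49, 2.07-fold lower, and its 8 other bright probe sets lay between -1.90 and -0.28. SOD1, which removes superoxide, was at 12.86, 12.81 and 12.48 against 12.38, 12.33 and 12.03, 1.39-fold lower without overlap. Of the ATP synthase subunits, ATP5PO was at -0.66 and ATP5PF at -0.44. CBS, the first enzyme of transsulfuration, was at -0.75 (SE 0.25) and PFKL, the liver-type phosphofructokinase, at -0.32 (SE 0.16); neither was called. ABCG1, a sterol exporter, had the highest difference of all members, at 0.33.

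Of 12 surface, matrix and secreted members 6 were called lower and 0 higher, with a median of -0.36 and an SD of 0.63, the widest of the 8 lists. The share called lower was 62.8% over all members and 7.74% over all tested genes. APP was at 11.86, 11.93 and 12.49 against 11.44, 11.60 and 12.06, 1.31-fold lower with overlap between days. BACE2, a protease that can cut APP, was at -0.32, while its 2 other bright probe sets gave -0.49 and 0.12. The collagen VI gene COL6A1 was at -0.75 (-0.09 on its brightest probe set not ending in _x_at or _s_at) and COL18A1, the source of endostatin, at -0.40 (SE 0.21, not called). TMPRSS2, a serine protease of secretory epithelia, was at 4.75, 5.34 and 6.56 against 4.43, 4.29 and 4.94, at least 1.55-fold lower. Its spiky mean of 4.55 lay under the filter level, so that difference carries little weight. EVA1C, a heparin-binding surface protein, was at -0.04 (SE 0.14).

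Of 8 signalling and channel members 5 were called lower and 0 higher (median -0.50), where 62.8% of all members and 7.74% of all tested genes were called lower. DYRK1A was at 10.04, 9.97 and 9.86 against 9.40, 9.19 and 9.13, 1.64-fold lower without overlap. Its 2 other bright probe sets gave smaller differences, -0.54 and -0.42, against -0.72 on the brightest. RCAN1, an inhibitor of calcineurin, was at -0.49, with its other bright probe set at 0.00. RSPH1, which was in this list but encodes a protein of motile cilia, was at -0.95, and the dim kinase gene HUNK at 0.03. Of 8 membrane traffic members 5 were called lower (median -0.60), among them PTTG1IP and TRAPPC10, a subunit of a vesicle tethering complex, at -0.78. The endocytic scaffold ITSN1, at -0.46 (SE 0.17), was not called, nor was DOP1B at 0.02. DONSON, a replication fork factor, was at -0.84 and the centrosome scaffold PCNT at -0.70; both were called lower.

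**Figure D3:**
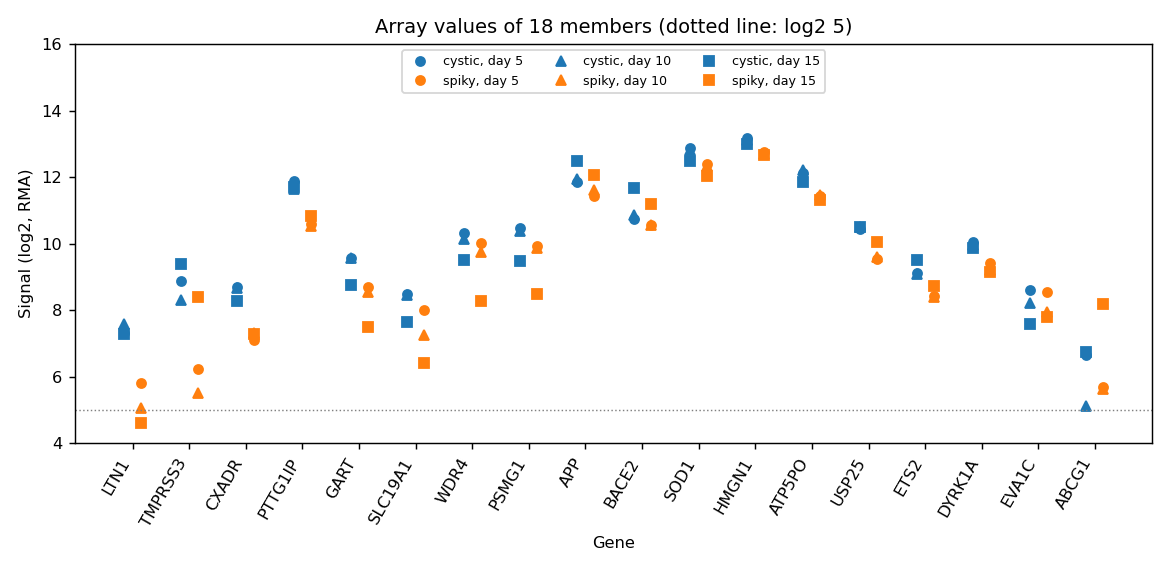
Array values (log2, vertical axis) of 18 members, blue for cystic and orange for spiky colonies, with a marker for each day. PTTG1IP, SOD1, HMGN1, ATP5PO and DYRK1A show orange points under all blue ones, while EVA1C and ABCG1 overlap and WDR4 and PSMG1 drop at day 15 in both clones.

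The 9 members with positive differences reached no more than 0.33. ABCG1 was at 6.65, 5.13 and 6.75 against 5.70, 5.64 and 8.18, and with an array of day 15 left out its difference was -0.22. In such a fit that day no longer counts toward the clone difference, whichever clone's array is left out. CBR3-AS1, antisense to a carbonyl reductase gene, was at 0.32 (SE 0.16) and URB1-AS1 at 0.16 (SE 0.17), each with the spiky array above the cystic one on all 3 days. Over the mean of all its probe sets CBR3-AS1 was at -0.27. BAGE2, TSPEAR-AS2, HUNK and DOP1B were between 0.02 and 0.11, each with overlapping groups, and leaving out 1 array took BAGE2 to -0.27, HUNK to -0.14 and DOP1B to -0.08. C21orf58, which was outside the naming rule, was at 0.05, and its 2 other bright probe sets gave -0.89 and -0.10. H2BC12L, at 0.06, was measured by a probe set of the _x_at type, which can detect related genes, here other histone genes. For 13 members in all the chosen probe set was of that type, BTG3, APP and BACE2 included.

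Neighbours that start back to back can be set side by side, because their starts share a stretch of DNA. The list of starts used here held 97 members, and in 10 pairs of these the starts faced away from each other within 1000 bases. Pairs with a member outside that list were not looked for. In 7 pairs both genes were lower in spiky colonies, and the differences of the partners lay 0.14 to 0.93 apart on the log2 scale (median 0.53). ATP5PF and GABPA, 68 bases apart, were at -0.44 and -0.72. GART and SON, 146 bases apart, were at -1.05 and -0.34, but the other bright probe sets of SON (-0.86 to -0.47) lay within the range of those of GART (-1.90 to -0.28). URB1, a ribosome assembly factor, was at -0.78 and URB1-AS1, 121 bases away, at 0.16. POFUT2, which adds fucose to secreted proteins, was at -0.63 and LINC00205, 157 bases away, at -1.22. LINC01547 and SLX9, a ribosome export factor, were at -0.08 and -0.55.

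The DNA between the starts of these 5 closest pairs is shown; both genes of a pair begin at its ends. Sequences are from RefSeq, build GRCh38.p14, plus strand, 5′ to 3′, at chr21:25734905-25734971 (ATP5PF/GABPA), chr21:32393013-32393132 (URB1/URB1-AS1), chr21:33542893-33543037 (GART/SON), chr21:44939914-44940028 (LINC01547/SLX9) and chr21:45287896-45288051 (POFUT2/LINC00205), with the minus-strand gene to the left. Capitals mark matches on either strand to GGGCGG (GC box), CCGGAAG (ETS family core), the NRF1 core, the pentamer CCAAT, the TATA box with the letters TATAAA, the hypoxia response core with the letters ACGTG, and TGACGTCA (CRE).
ATP5PF/GABPA: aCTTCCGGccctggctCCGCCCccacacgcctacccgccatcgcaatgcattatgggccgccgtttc
URB1/URB1-AS1: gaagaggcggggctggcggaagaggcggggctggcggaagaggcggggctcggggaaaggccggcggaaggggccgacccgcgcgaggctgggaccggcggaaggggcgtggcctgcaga
GART/SON: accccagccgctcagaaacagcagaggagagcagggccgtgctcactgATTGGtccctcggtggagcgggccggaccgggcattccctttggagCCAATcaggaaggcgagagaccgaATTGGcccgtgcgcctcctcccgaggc
LINC01547/SLX9: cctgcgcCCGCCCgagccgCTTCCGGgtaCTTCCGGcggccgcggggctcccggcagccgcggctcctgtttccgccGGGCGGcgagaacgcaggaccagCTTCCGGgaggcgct
POFUT2/LINC00205: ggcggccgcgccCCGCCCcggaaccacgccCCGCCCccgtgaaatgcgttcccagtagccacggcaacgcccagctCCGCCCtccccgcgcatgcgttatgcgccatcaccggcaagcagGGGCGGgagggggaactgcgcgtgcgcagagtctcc
The GART/SON stretch held 3 CCAAT matches, the LINC01547/SLX9 stretch 3 ETS cores and 2 GC boxes, the POFUT2/LINC00205 stretch 4 GC boxes, and the ATP5PF/GABPA stretch 1 ETS core and 1 GC box. The URB1/URB1-AS1 stretch held 0 matches. A match is a description and not a binding site.

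**Figure D4:**
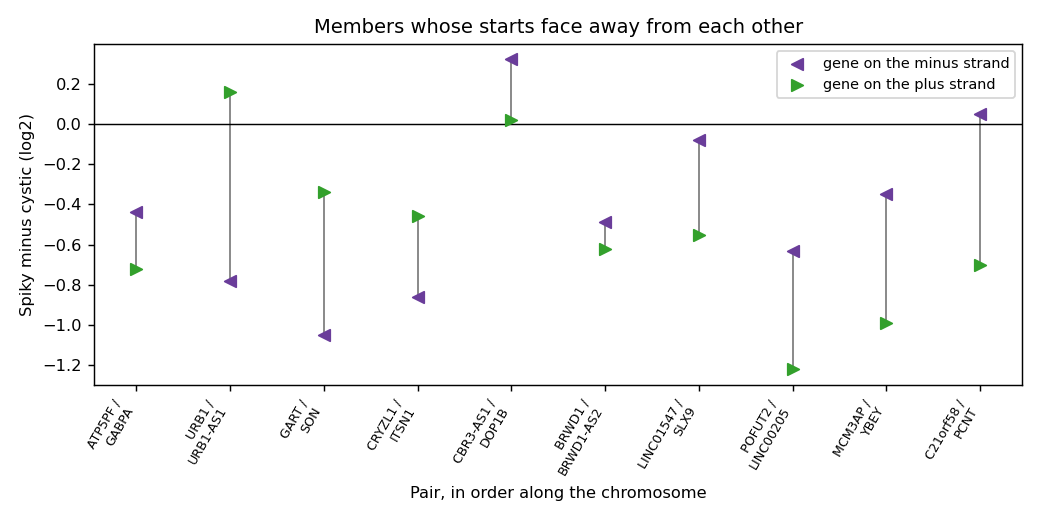
Spiky minus cystic difference (log2, vertical axis) of both genes in each of the 10 back-to-back pairs, in order along the chromosome; purple marks the gene on the minus strand and green that on the plus strand, joined by a line. The partners of BRWD1/BRWD1-AS2 lie closest (0.14 apart) and those of URB1/URB1-AS1 furthest apart (0.93).

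Upstream sequences of the extreme members are shown for the lowest differences (LTN1 and TMPRSS3), the highest among genes with a listed start (CBR3-AS1), and the lowest change over culture (WDR4). Each is the 250 bases before the start, on the minus strand, at chr21:28992878-28993127 (LTN1), chr21:42389150-42389399 (TMPRSS3), chr21:36156309-36156558 (CBR3-AS1) and chr21:42879540-42879789 (WDR4), with the same build and capitals.
LTN1: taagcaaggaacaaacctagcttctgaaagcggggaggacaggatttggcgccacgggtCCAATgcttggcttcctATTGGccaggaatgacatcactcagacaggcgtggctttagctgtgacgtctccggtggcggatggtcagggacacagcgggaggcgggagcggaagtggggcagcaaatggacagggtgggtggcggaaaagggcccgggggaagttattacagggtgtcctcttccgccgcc
TMPRSS3: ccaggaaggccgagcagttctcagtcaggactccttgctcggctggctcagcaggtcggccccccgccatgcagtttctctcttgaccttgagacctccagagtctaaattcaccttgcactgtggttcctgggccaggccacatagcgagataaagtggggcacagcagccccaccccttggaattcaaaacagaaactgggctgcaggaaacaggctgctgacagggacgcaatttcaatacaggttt
CBR3-AS1: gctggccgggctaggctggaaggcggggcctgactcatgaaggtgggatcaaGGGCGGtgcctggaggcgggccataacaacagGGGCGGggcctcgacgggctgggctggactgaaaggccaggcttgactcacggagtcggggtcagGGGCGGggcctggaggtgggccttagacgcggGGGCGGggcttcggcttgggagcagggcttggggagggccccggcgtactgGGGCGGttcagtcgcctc
WDR4: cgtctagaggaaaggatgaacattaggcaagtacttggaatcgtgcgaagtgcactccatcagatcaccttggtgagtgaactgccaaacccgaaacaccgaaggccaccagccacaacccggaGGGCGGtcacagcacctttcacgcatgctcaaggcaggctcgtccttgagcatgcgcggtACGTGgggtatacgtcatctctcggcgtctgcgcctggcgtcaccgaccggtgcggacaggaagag
LTN1 had 2 CCAAT matches, TMPRSS3 0 of any kind, CBR3-AS1 5 GC boxes, and WDR4 1 GC box and 1 ACGTG. Over the 97 members with a listed start, 63.9% held a GC box, against 66.9% of 9906 other tested genes and 42.3% of all 27305 genes with a start. The ETS core was in 18.6% of members, 15.8% of other tested genes and 8.82% of all; CCAAT was in 24.7%, 35.1% and 33%. TATAAA was in 10.3%, 5.54% and 11.1%, ACGTG in 23.7%, 23.4% and 18.7%, the NRF1 core in 4.12%, 1.92% and 1.13%, and TGACGTCA in 1.03%, 2.99% and 1.77%. These shares are descriptions, without a test.

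Members changed over culture in both directions. Limma with adjustment over all genes called 21 members higher at day 15 than at day 5 (16.3%, against 10.4% of all tested genes) and 31 lower (24%, against 21.9%). The 52 called members changed in the same direction in both clones, which a call on the clones' average favours; over all members 92 of 129 (71.3%) did. The median change over all 129 was -0.05, against -0.11 over all tested genes; with each array centred on its median 28 were called higher and 28 lower (15.1% and 15.8% of all tested genes), and with cyclic loess 27 and 24 (15.3% and 14.2%). Without the spiky array of day 5, 7 members were called higher and 2 lower (2.74% and 3.43% of all tested genes), and without the cystic array of day 5, 8 and 23 (5.65% and 12.3%).

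The 6 members that fell furthest were WDR4, PSMG1, SLC19A1, GART, RRP1 and MIS18A. WDR4, a subunit of a tRNA methyltransferase, gave cystic values of 10.33, 10.14 and 9.52 and spiky values of 10.01, 9.75 and 8.26 at day 5, 10 and 15; day 15 was the lowest in both clones. It fell 2.43-fold by day 15 (log2 -1.28, SE 0.21, limma adjusted p = 0.00250). PSMG1, a chaperone of proteasome assembly, stood at 10.46, 10.38 and 9.48 and at 9.93, 9.88 and 8.48, with a fall of 2.32-fold (adjusted p = 0.000852 in limma) that came between day 10 and day 15. SLC19A1, the reduced folate carrier, fell 2.30-fold, at 8.47, 8.45 and 7.64 in cystic against 7.99, 7.26 and 6.42 in spiky cultures. GART, whose product uses folate cofactors, fell 2.02-fold (limma adjusted p = 0.00180), RRP1, a ribosomal RNA processing factor, 2.01-fold, and MIS18A, which prepares centromeres for new histones, 2.01-fold. Without the spiky array of day 5 the limma calls of WDR4 (-1.03, adjusted p = 0.0663), SLC19A1 (-0.84, adjusted p = 0.0815), GART (-0.88, adjusted p = 0.0521) and RRP1 (-0.80, adjusted p = 0.0922) were lost, while PSMG1 (adjusted p = 0.0341) and MIS18A (adjusted p = 0.0349) still passed. Over the mean of all probe sets WDR4 was at -0.71 (limma adjusted p = 0.0457) and GART at -0.59 (adjusted p = 0.0467), and without the spiky array of day 15 WDR4 was at -0.83. For RRP1 the other bright probe set had the opposite sign. Over the mean of all RRP1 probe sets the change was -0.34 (limma adjusted p = 0.112).

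By list, 6 of 14 RNA and ribosome members fell and 1 rose. Over all tested genes 21.9% were called lower and 10.4% higher, and no list was tested against these shares. Beside WDR4 and RRP1, the falling ones were RRP1B (-0.94), PWP2 (-0.89) and URB1 (-0.63), all of ribosome assembly, and the mitochondrial ribosome gene MRPL39 (-0.48), while ADARB1 rose by 0.81. Probe sets disagreed on the direction over time for several members called by day: the other bright probe set of PWP2, that of CCT8, both of PAXBP1, 2 of 3 of ADARB1 and 1 of 2 of HEMK2 and of BACE2 did not share the sign. Of 20 metabolic members 6 fell and 2 rose; SOD1 fell by 0.37 (limma adjusted p = 0.00251). Of the 9 folding and ubiquitin members 4 fell and 0 rose, PSMG1, CCT8 (-0.42), SUMO3 (-0.28) and CSTB (-0.26), a cathepsin inhibitor. Of 16 transcription and chromatin members 3 fell, HEMK2 (-0.94), MIS18A and CHAF1B (-0.84), and 3 rose, NRIP1 (0.59), BRWD1 (0.63) and PAXBP1 (0.71). DONSON fell by 0.49, RCAN1 by 0.76 and the potassium channel gene KCNJ15 by 0.85. RSPH1 rose by 0.85, and 0 of 8 membrane traffic members were called.

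Of 12 surface and secreted members 6 were called higher at day 15, 1 (EVA1C, -0.88) was called lower and 5 were not called. The shares over all tested genes were 10.4% higher and 21.9% lower, and this list was not tested against them. TMPRSS3 rose by 0.51 in the cystic and 2.17 in the spiky clone (fitted log2 1.34, SE 0.38, limma adjusted p = 0.0247), after a lower day 10 in both clones. TMPRSS2 was called at least 1.72-fold higher (limma adjusted p = 0.0195), but its 3 spiky arrays and the cystic one of day 5 lay under log2 5, and it passed the filter through its cystic arrays of day 10 and 15, so that call carries little weight. APP rose by 0.63 in each clone (SE 0.07, limma adjusted p = 0.000719), and BACE2 by 0.77 (SE 0.10, limma adjusted p = 0.00111). COL18A1 rose by 0.90 and COL6A1 by 0.63. Outside that list PLAC4 rose 2.62-fold, SLC5A3, the sodium-coupled inositol carrier, 2.16-fold, LINC00205 2.14-fold and BAGE2 1.99-fold. The call of TMPRSS3 was lost in limma on its brightest probe set not ending in _x_at or _s_at (0.57, adjusted p = 0.356), and that of SLC5A3 likewise (0.32, adjusted p = 0.364). Over the mean of all probe sets limma lost LINC00205 (0.33, adjusted p = 0.218), TMPRSS3 (0.77, adjusted p = 0.188) and SLC5A3 (0.61, adjusted p = 0.0645). Without the variance trend it lost LINC00205 (adjusted p = 0.0561), BAGE2 (adjusted p = 0.0648) and TMPRSS3 (adjusted p = 0.0797), and with no filter on dim genes TMPRSS3 (adjusted p = 0.0520) and BAGE2 (adjusted p = 0.0503). Without the cystic array of day 5, limma lost the calls of PLAC4 (0.79, adjusted p = 0.0840), TMPRSS2 (0.65, adjusted p = 0.217), SLC5A3 (0.79, adjusted p = 0.0680), TMPRSS3 (1.71, adjusted p = 0.0561) and BAGE2 (1.27, adjusted p = 0.0557). Without the spiky array of day 5 it lost TMPRSS3 (0.96, adjusted p = 0.264), LINC00205 (0.50, adjusted p = 0.179) and BAGE2 (0.72, adjusted p = 0.269). Without that of day 15 TMPRSS3 was at 0.46 (limma adjusted p = 0.135), LINC00205 at 0.78 (adjusted p = 0.0543) and BAGE2 at 0.43 (adjusted p = 0.231), and without the cystic array of day 15 TMPRSS2 was at 0.69 (adjusted p = 0.129).

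**Figure D5:**
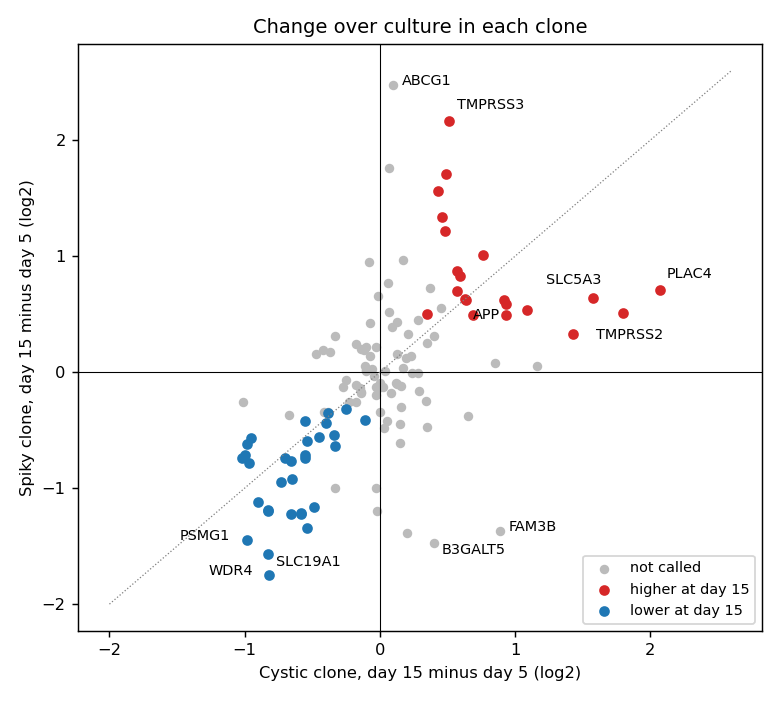
Day 15 minus day 5 (log2) in the cystic clone (horizontal) and the spiky clone (vertical) for the 129 members, red where called higher, blue where called lower and grey where not called; the dotted line marks equal change. The 52 coloured points lie in the 2 quadrants of equal sign, and ABCG1, FAM3B and B3GALT5 are grey points far from the line.

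The change per day did not pass as different between the clones for any member, in a test that could call few. In simulated data it recovered 1.49% of slope differences of log2 1 per 10 days and 30.3% of those of log2 2. The lack of calls therefore does not show that the clones changed alike. Limma called 0 of 129 members, where 0.0% of all tested genes were called; at an unadjusted p under 0.05 there were 12 members (9.30%, against 2.51% of all tested genes). FAM3B, a secreted cytokine-like protein, had the lowest slope difference, -2.26 per 10 days (log2, SE 0.49), and B3GALT5 was at -1.86 (SE 0.74). ABCG1 and TSPEAR had the highest, at 2.38 (SE 1.30) and 1.69 (SE 0.56). All 4 had limma adjusted p = 0.999. FAM3B was at 5.43, 5.68 and 6.33 against 6.51, 5.65 and 5.15, with the order of the clones turned between day 5 and day 15. Without the spiky array of day 5, which left that clone only day 10 and day 15, limma called 1 member. No share over all tested genes is given for that fit, so this call says nothing particular of the members.

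The 8 genes left out by the rule were also lower in the spiky clone, from -2.28 (MX1) to -0.73 (IFNGR2). With them the median of the chromosome was -0.59 in place of -0.54. The interferon receptor genes IFNAR1 and IFNAR2 and the receptor subunit gene IL10RB were at -0.77, -1.04 and -1.18, the sterol synthesis gene LSS at -1.19 and the trefoil peptide gene TFF1 at -1.06. Their neighbours TFF3 and TFF2 were below the level required for testing.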

How the data were processed

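The deposited values are log2 values per probe set, made by the authors with RMA, per the submitters' processing notes. For RMA, no version was given in the sources used here. RMA puts all arrays on 1 distribution, so a difference is relative to the other genes of an array. Gene symbols came from GEO's platform annotation and were updated to RefSeq GRCh38.p14 (41043 of 41097 with 1 symbol matched). Sequences, gene order and distances between starts are RefSeq's. The 12317 genes with a mean of at least log2 5 were fitted in limma 3.58.1 (R 4.3.3) with culture day as a factor, colony shape and an intensity trend in the variance, leaving 2 residual degrees of freedom; a fit with day as a number tested the slopes. Tests were two-sided; p-values were adjusted by Benjamini-Hochberg over all tested genes, with 0.05 as the threshold. Simulated data were used to test the fit. Same-day deviations of the clones correlated at 0.608, 0.496 and 0.719 across genes; culture day, as labelled, therefore pairs the arrays.

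The members, role lists and tests were chosen with earlier results of these data known. Named were the 10 lowest and 8 highest clone differences, the 6 highest and 6 lowest called day changes, 2 slopes each way, per role list the 2 lowest and 1 highest, and 30 genes fixed by name, of which RUNX1 had no probe set of 1 symbol and ADAMTS1, TFF2, TFF3 and TIAM1 were too dim; symbols with orf or LOC were skipped. Other genes were named after their values were seen: list members that changed with day, back-to-back pairs and genes at a limit. Alternatives covered the filter, probe set, scaling, variance prior, day block and each array left out.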

Additional observations from a re-analysis of the deposited data

Results flagged for a closer look

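FAM3B moved in opposite directions in the clones over culture: from day 5 to day 15 the cystic clone changed by 0.89 and the spiky clone by -1.37 (log2), with day 10 in between in both. Each clone had 1 array per day, and the slope difference had adjusted p = 0.999 in limma, so the opposite movement did not pass a test.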

How the results depend on the processing

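Of 14 alternative settings, all planned, none gave a member called higher in spiky colonies, and the median difference was negative in each. It moved to -0.35 with no filter on dim genes, when 234 genes entered. The count called lower in spiky colonies, 81, became 40 with a variance prior without trend and 5 with no replicate block, and was 47 to 86 with 1 array left out (median -0.59 to -0.53); over all tested genes the share called lower was 4.13% without the trend and 0.43% without the block. The counts of members higher and lower at day 15, 21 and 31, were 7 to 22 and 2 to 36 with 1 array left out. Over all tested genes the shares in those fits were 2.74% to 13.3% higher and 3.43% to 21.8% lower. The lower count was 19 with probe sets not ending in _x_at or _s_at. In that probe set setting only 98 members entered, and 19.0% of all tested genes were called lower at day 15. The count of differing slopes was 0, or 0 to 1 with 1 array left out, for which no share over all tested genes is given. Under those same probe sets ADARB1 (0.00) and BACE2 (0.12) lost their negative clone difference. Among the named members 748 of 764 recomputed clone differences moved by less than the SD over days, and 125 of 152 day changes stayed called while 27 lost the call with the same sign. Many of these values could not move. The filter settings, the variance prior and the dropped day block leave a gene's fitted clone difference as it was. Leaving out an array of day 10 likewise leaves the size of a day change as it was. Both counts therefore overstate how far the values were checked. The SD over days holds the change over culture that the fit removes, so it is a wide yardstick for the clone differences. RCAN1, for example, counted as unmoved at -0.17 over the mean of its probe sets, in place of -0.49. Centred arrays shifted the median of all genes by under 0.1. The cause of these changes was not tested. With 3 arrays per clone and no detection calls, signal near log2 5 limits what dim members can show.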
